A study of Rattus norvegicus with 4 samples.

Results

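The genes described are 9 matrix metalloproteinases (MMP2, MMP3, MMP7, MMP8, MMP9, MMP10, MMP12, MMP13 and MMP14) and TIMP1, their tissue inhibitor, 10 of the 27832 features in an expression table of rat middle ear mucosa. They were chosen by symbol, and each of the 10 symbols matched 1 feature. The data come from SD (Sprague-Dawley) rats, whose middle ear cavity was injected across the right eardrum and whose bulla mucosa was scraped 1 week later for poly(A) RNA sequencing. The 4 libraries are 1 each for media only (the vehicle control), for methicillin-resistant Staphylococcus aureus (MRSA), for Pseudomonas aeruginosa (PA) and for a mixed culture of both species (MRSA + PA). The bacteria were given as a 50 µL suspension of 10000000 colony forming units. The sample descriptions repeat the MRSA wording for every sample, so the PA and mixed inocula are taken from the inoculum label and the study's methods. Neither the rats' age nor the number of rats behind a library is given in the sources used here.

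Matrix metalloproteinases are zinc-dependent proteases that are made as inactive pro-enzymes and cut collagens, proteoglycans, elastin and other matrix proteins once the pro-domain is removed. They also process cytokines, growth factors and other pro-enzymes. Inhibitors of the TIMP family bind the active site. In the middle ear they are known from remodelling of the mucosa and of the bony wall during otitis media, with macrophages, neutrophils, fibroblasts, epithelium and bone cells among their sources.

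With 1 library per condition there is no replicate check, so no test or p-value is given for any difference and every value below describes these 4 libraries. Levels are FPKM (fragments mapped to a gene, divided by the transcript length and the library size), which are per length and can be set beside each other between genes. Differences are on the log2(FPKM + 0.1) scale, which understates the difference of low genes, and 2-fold means 1 on that scale. Folds printed for single genes are plain ratios of FPKM with no constant added, so for low genes they exceed the log2 differences. The 3 comparisons with media share the same media library. All 10 genes were among the 15944 features whose mean reached 1 FPKM, over which background shares were counted. In bulk mucosa, fewer cells of a type and less RNA per cell cannot be told apart.

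The 6 members of the chromosome 8 cluster lie near each other, and the promoters of 5 are printed, without that of MMP10. They are shown because the genes lay on different sides of media. Of the 6, 5 carry the same short AP-1 sequence near the start, MMP10 among them. AP-1 is the FOS and JUN transcription factor dimer, a known regulator of metalloproteinase promoters. The promoter table of RefSeq (rat build GRCr8, 250 bases before to 50 bases after each gene's start) held 7 of the 10 genes, without MMP2, MMP9 and MMP14. The motif TGANTCA, which reads alike on both strands, was searched on both strands and is in capitals. The windows are chr8:12866402-12866701 for MMP12, chr8:13132793-13133092 for MMP7, chr8:12925031-12925330 for MMP3, chr8:12782579-12782878 for MMP13 and chr8:13008640-13008939 for MMP8, all on the plus strand. MMP8 is shown as the cluster member without the motif.
MMP12: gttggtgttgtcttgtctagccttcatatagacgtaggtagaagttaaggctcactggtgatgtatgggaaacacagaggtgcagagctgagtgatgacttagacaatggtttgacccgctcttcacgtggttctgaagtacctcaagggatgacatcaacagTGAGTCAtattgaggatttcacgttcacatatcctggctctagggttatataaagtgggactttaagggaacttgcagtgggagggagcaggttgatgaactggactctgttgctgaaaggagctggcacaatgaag
MMP7: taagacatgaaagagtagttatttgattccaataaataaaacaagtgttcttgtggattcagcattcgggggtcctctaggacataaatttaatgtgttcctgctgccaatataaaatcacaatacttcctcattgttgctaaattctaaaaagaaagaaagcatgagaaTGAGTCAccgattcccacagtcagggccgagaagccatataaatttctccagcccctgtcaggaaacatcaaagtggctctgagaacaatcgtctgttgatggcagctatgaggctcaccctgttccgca
MMP3: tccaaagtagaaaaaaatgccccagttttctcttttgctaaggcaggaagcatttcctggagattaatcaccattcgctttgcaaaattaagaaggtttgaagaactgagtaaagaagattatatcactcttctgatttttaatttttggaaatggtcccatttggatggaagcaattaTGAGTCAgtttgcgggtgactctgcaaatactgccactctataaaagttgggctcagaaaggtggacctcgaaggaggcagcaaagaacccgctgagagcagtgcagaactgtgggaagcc
MMP13: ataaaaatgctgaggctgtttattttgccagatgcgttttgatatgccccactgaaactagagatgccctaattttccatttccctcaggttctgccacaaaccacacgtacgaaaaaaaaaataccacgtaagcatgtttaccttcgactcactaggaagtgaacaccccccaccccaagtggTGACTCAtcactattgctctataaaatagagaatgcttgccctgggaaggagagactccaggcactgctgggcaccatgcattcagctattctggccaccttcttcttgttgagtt
MMP8: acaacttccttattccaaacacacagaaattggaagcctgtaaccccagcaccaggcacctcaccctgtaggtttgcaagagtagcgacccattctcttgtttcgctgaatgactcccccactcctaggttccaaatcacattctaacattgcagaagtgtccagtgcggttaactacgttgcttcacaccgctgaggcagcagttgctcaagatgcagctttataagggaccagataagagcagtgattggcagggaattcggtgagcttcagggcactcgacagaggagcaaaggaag

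The motif began 61 bases before the start of MMP10, 66 before MMP13, 71 before MMP3, 80 before MMP7 and 87 before MMP12. It was TGACTCA in MMP13 and TGAGTCA in the other 4. MMP8 and TIMP1 had no match in the window, so 5 of 7 promoters held it, beside 7.33% of the 33469 promoters in the table. TATAAA, searched on both strands, was in 6 of 7 windows (all but TIMP1), beside 14.2% of all promoters. AGGAAG, a sequence that ETS family factors are known to bind, was in 5 of 7 (MMP3, MMP7, MMP8, MMP13 and TIMP1), beside 34.5%. No match of one motif overlapped a match of another in these windows. A match is a description of the sequence and not a bound site. The genes with the AP-1 sequence were both higher than media (MMP7, MMP12) and lower (MMP3).

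The genes spanned a wide range of levels. MMP13 had the highest FPKM of the 10 in every library, and MMP2, MMP14 and TIMP1 filled places 2 to 4 in media, PA and MRSA + PA. MMP12 stood in place 7 with media, 4 with MRSA, 5 with PA and 6 with both species. MMP7 was in place 10 in media and MRSA + PA, but in 7 in MRSA and 8 in PA. Without replicates, no neighbours in these orders can be said to differ beyond their spread.

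**Figure D1:**
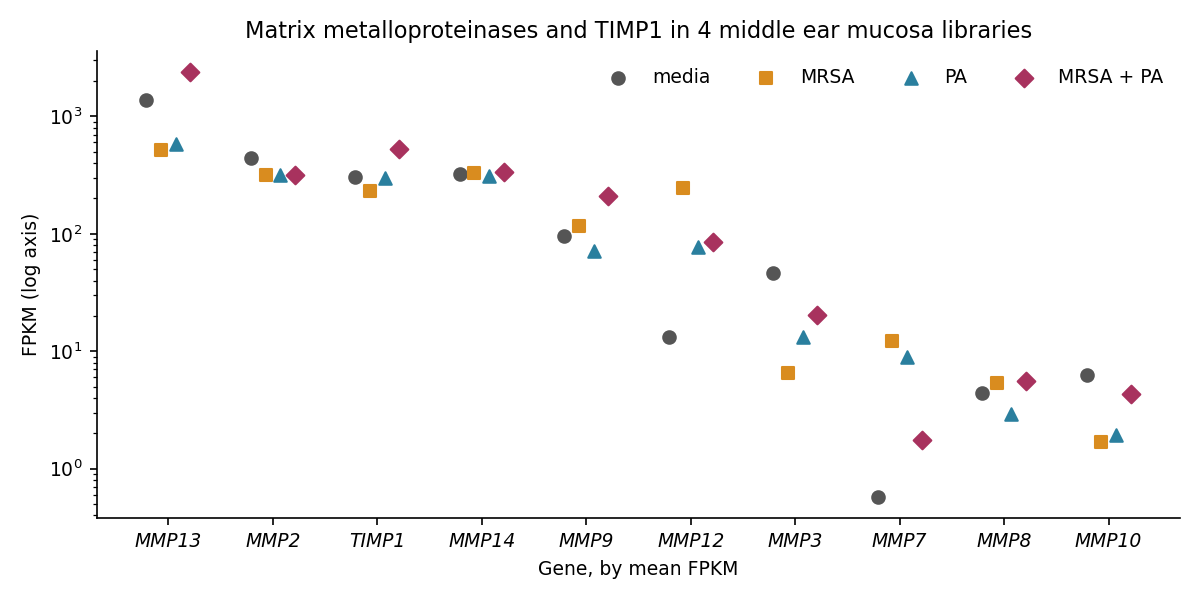
FPKM of the 10 genes (log axis) in the 4 libraries, 1 point per library, with genes ordered by mean FPKM. MMP13 is highest in every library, MMP14 lies between 309 and 333 FPKM, and the media point of MMP12 and of MMP7 is the lowest of its 4.

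Counted against media, 2 genes were at least 2-fold higher and 3 at least 2-fold lower in MRSA, beside 8.47% and 4.95% of all features. In PA the counts were again 2 and 3, beside 10% higher and 7.80% lower. In MRSA + PA they were 3 and 1, beside 7.78% and 7.83%. MMP7 and MMP12 were higher in all 3 inoculated libraries, a class that held 5.12% of all features, and MMP3 was lower in all 3, beside 3.38%. MMP2, MMP8, MMP14 and TIMP1 were within 2-fold of media in each. The median log2 difference of the 10 genes was -0.18 with MRSA, -0.46 with PA and 0.55 with both species, beside medians of 0.05, 0.07 and 0.05 over all features. In each inoculated library the 10 genes lay on both sides of media.

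The background depended on how the libraries are scaled to each other. Features under 300 bp hold 49.2% to 63.1% of the FPKM of a library, and setting all libraries to equal FPKM sums moved the all-feature median against media from 0.05 to -0.21 for MRSA and to 0.23 for MRSA + PA. It moved that median to 0.43 for MRSA + PA against MRSA, 0.16 for MRSA + PA against PA and 0.24 for PA against MRSA, and equal sums over features of at least 300 bp moved it to 0.24 for PA against media. Of the calls past 2-fold, the share that was higher against media went from 63.1% to 44.1% for MRSA, and for MRSA + PA from 49.8% to 61.4%. Between inoculated libraries it went from 21.9% to 57.1% for MRSA + PA against MRSA, from 36.9% to 52.2% for MRSA + PA against PA and from 41.3% to 57.8% for PA against MRSA. The sums over features of at least 300 bp took it from 56.3% to 67.0% in PA against media. Skeletal muscle markers also differed, with a sum over 7 genes of 7544 FPKM with media, 2975 with MRSA, 11 with PA and 4.84 with both species, and their part in the results was not tested. The direction of a member turned under some scaling only for differences from media of MMP14 in all 3, MMP9 in MRSA and TIMP1 in PA, and for differences of MMP2 and MMP14 between inoculated libraries.

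**Figure D2:**
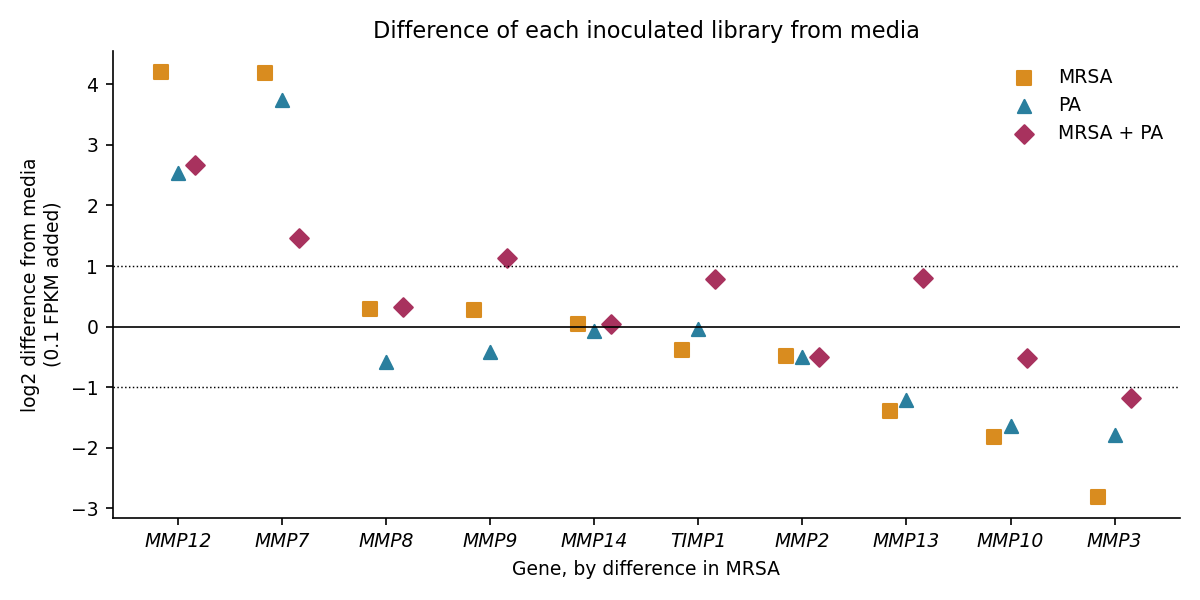
log2 difference of each gene from media (0.1 FPKM added), 1 point per inoculated library, with dotted lines at 2-fold and genes ordered by the difference in MRSA. MMP12 and MMP7 lie above 1 and MMP3 below -1 in all 3 libraries, while MMP13 lies at -1.39 with MRSA, -1.22 with PA and 0.81 with both species.

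The collagenases split. MMP13 (chromosome 8), collagenase 3, cuts fibrillar and cartilage collagens and is the main interstitial collagenase of rodents. It was at 1366 FPKM with media, 520 with MRSA, 587 with PA and 2388 with both species. MRSA and PA alone were low and near each other, while the mixed culture was the highest library. MMP13 was 2.63-fold lower than media in MRSA and 2.33-fold lower in PA, but 1.75-fold higher in MRSA + PA. The mixed culture thus stood 4.60-fold above MRSA and 4.07-fold above PA. MMP8 (chromosome 8), the collagenase stored in neutrophil granules, was at 4.40 FPKM with media, 5.38 with MRSA, 2.90 with PA and 5.56 with both species. It was low in every library, lowest in PA, and its log2 differences from media (0.28, -0.59 and 0.33) were within 2-fold.

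Of the gelatinases, which digest denatured collagen and basement membrane collagen, MMP2 (chromosome 19) was at 445 FPKM with media, 317 with MRSA, 315 with PA and 314 with both species. The 3 inoculated libraries were nearly equal and lay 0.49 to 0.50 below media on the log2 scale. MMP9 (chromosome 3), which neutrophils store and osteoclasts make, was at 96.1 FPKM with media, 116 with MRSA, 71.7 with PA and 210 with both species. The mixed culture was highest, 2.18-fold above media and 2.92-fold above PA. Its log2 difference was 0.27 in MRSA, which came to 0 within rounding under equal FPKM sums, and -0.42 in PA.

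The stromelysins were lower after inoculation. MMP3 (chromosome 8), stromelysin 1, cuts proteoglycans and activates other pro-metalloproteinases. It was at 46.2 FPKM with media, 6.51 with MRSA, 13.3 with PA and 20.3 with both species. Media was the highest library and MRSA the lowest, 7.10-fold below it, with PA 3.48-fold and MRSA + PA 2.28-fold below. Only 64 of the 15944 features were further below media with MRSA, 552 with PA and 989 with both species. MMP10 (chromosome 8), stromelysin 2, was at 6.27 FPKM with media, 1.69 with MRSA, 1.94 with PA and 4.34 with both species. It was likewise highest in media, 3.71-fold lower in MRSA and 3.23-fold lower in PA, while MRSA + PA was 1.44-fold lower and within 2-fold. Both stromelysins were higher in the mixed culture than with either species alone, by 1.63 over MRSA and 0.61 over PA on the log2 scale for MMP3 and by 1.31 and 1.12 for MMP10.

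MMP12 (chromosome 8), the macrophage elastase, cuts elastin and is made mainly by macrophages. It was at 13.2 FPKM with media, 246 with MRSA, 77.6 with PA and 85.1 with both species. Each inoculated library was above media, 18.6-fold with MRSA, 5.86-fold with PA and 6.43-fold with both species. MRSA alone was the highest, and the mixed culture was near PA alone (log2 difference 0.13) and 1.53 below MRSA. The study's own real-time RT-PCR of MMP12 differed from these values. Its reported fold change was smaller for each inoculum, largest with PA and smallest with MRSA. The study counted MMP12 as upregulated by both methods and described their results as in full agreement. The fold changes it printed for sequencing were near the log2 differences here, which were 4.21 with MRSA, 2.54 with PA and 2.68 with both species. Among the 15944 features, 107 were further above media with MRSA, 390 with PA and 210 with both species.

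MMP7 (chromosome 8), matrilysin, is a small protease of mucosal epithelia that activates antimicrobial defensins in the mouse intestine. It was at 0.579 FPKM with media, 12.3 with MRSA, 9.02 with PA and 1.77 with both species. The single-species libraries were 21.2-fold and 15.6-fold above media, and the mixed culture 3.05-fold. On the log2 scale the mixed culture was 2.73 below MRSA and 2.29 below PA. The low media value makes the difference depend on the added constant: with 1 FPKM added, the log2 differences from media were 3.07 with MRSA, 2.67 with PA and 0.81 with both species.

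MMP14 (chromosome 15), the membrane-anchored protease that activates pro-MMP2 at the cell surface, was at 324 FPKM with media, 331 with MRSA, 309 with PA and 333 with both species. Its highest library was 1.08-fold its lowest. The sign of these small differences turned with the scaling. With MMP2 lower and MMP14 near level, the ratio of MMP14 to MMP2 FPKM was 0.727 with media, 1.05 with MRSA, 0.982 with PA and 1.06 with both species.

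TIMP1 (chromosome X) inhibits most secreted metalloproteinases and also binds pro-MMP9. It was at 305 FPKM with media, 232 with MRSA, 297 with PA and 523 with both species. The mixed culture was the highest library, 1.72-fold above media and 2.25-fold above MRSA, and MRSA the lowest. The PA library was near media, with a log2 difference of -0.04 that became 0.13 under equal sums over features of at least 300 bp.

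The sum of the 9 proteases was 2301 FPKM with media, 1555 with MRSA, 1387 with PA and 3362 with both species. Divided by TIMP1, a ratio that does not depend on scaling between libraries, it was 7.56 with media, 6.70 with MRSA, 4.67 with PA and 6.43 with both species. All 3 inoculated libraries were below media, PA furthest. MMP13 was the largest part of the sum and made up 59.3% with media, 33.4% with MRSA, 42.3% with PA and 71.0% with both species. Without MMP13 the ratio was 3.07 with media, 4.46 with MRSA, 2.70 with PA and 1.86 with both species, so that MRSA stood above media and the mixed culture was lowest. The share of MMP12 was 0.576% with media and 15.8% with MRSA, 5.60% with PA and 2.53% with both species. These are ratios of RNA levels, not of protein or activity.

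**Figure D3:**
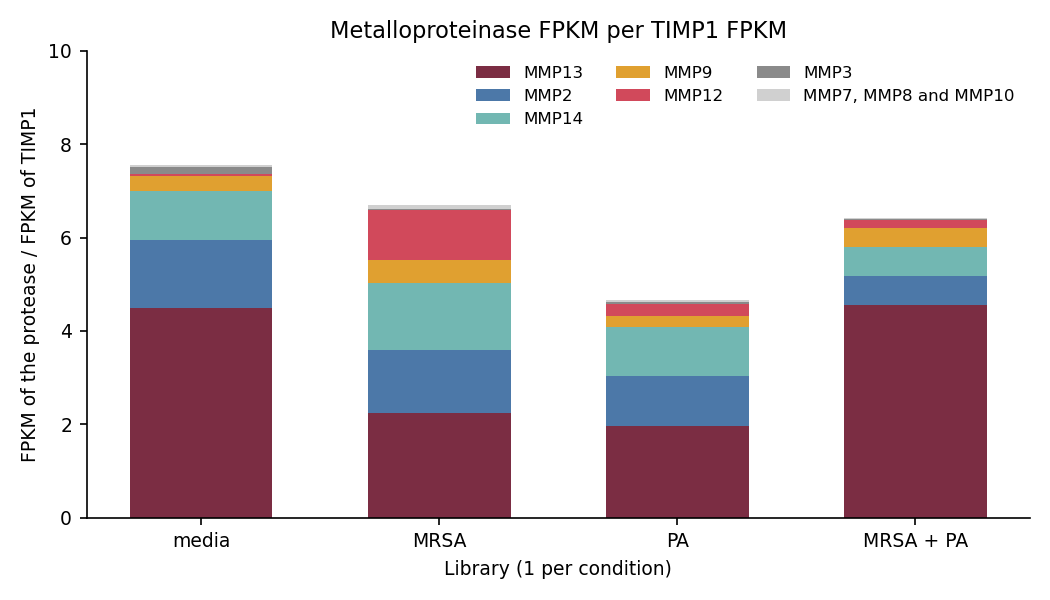
FPKM of each protease divided by FPKM of TIMP1 in the same library, stacked, with 1 bar per library. The stacks reach 7.56 with media, 6.70 with MRSA, 4.67 with PA and 6.43 with both species, and the MMP13 part is smaller in MRSA and PA than in the other two.

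The inoculated libraries were also compared with each other. Against MRSA, MRSA + PA had 4 genes at least 2-fold higher (MMP3, MMP10, MMP13 and TIMP1) and 2 lower (MMP7 and MMP12), beside 1.61% and 5.73% of all features. Against PA, it had 3 higher (MMP9, MMP10 and MMP13) and 1 lower (MMP7), beside 2.50% and 4.27%. PA against MRSA had 1 higher (MMP3) and 1 lower (MMP12), beside 3.54% and 5.03%. The median log2 difference of the 10 genes was 0.45, 0.71 and -0.06 in these comparisons, beside -0.01, -0.03 and -0.00 over all features. The median of -0.06 for PA against MRSA became 0.19 under equal FPKM sums and 0.06 under equal sums over features of at least 300 bp. Of the 10 genes, 5 had their highest level in the mixed culture and 3 in media, beside 20.7% and 29.0% of all features. MMP14 was among the 5 by a narrow margin, and without it, under median-of-ratios scaling and under equal sums over features of at least 300 bp, the count was 4. Under equal FPKM sums the count stayed at 5, beside 49.6% of all features.

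Other members of the families gave context. Of 18 other metalloproteinases listed, 14 were found and 8 had a mean of at least 1 FPKM, of which 1 was higher and 1 lower for MRSA, 2 each for PA (1 lower under equal sums over features of at least 300 bp) and 1 higher for both species. Their median log2 difference was -0.23, -0.12 and -0.36, and that in PA changed sign under equal sums over features of at least 300 bp. MMP25, a membrane-anchored metalloproteinase of leukocytes, was at 1.20 FPKM with media, 4.12 with MRSA, 3.95 with PA and 3.16 with both species, the 1 gene of this list higher in all 3. MMP11, an enzyme of stromal cells, had 11.1, 19.3, 34.7 and 19.0 FPKM in that order of libraries. MMP23, the highest of the list, was at 45.0, 29.0, 21.6 and 30.4 FPKM, and MMP19 at 18.6, 24.1, 25.7 and 26.8.

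Of 5 other inhibitors, 4 passed the filter. None of these 4 was higher past 2-fold in any inoculated library, and TIMP3 in MRSA and TIMP4 in PA were lower. A2M, under the filter, was at 0.129 FPKM with media, 0.597 with MRSA, 1.62 with PA and 0.538 with both species, lowest in media. TIMP4 and A2M are named after their values were seen. TIMP2, which also helps MMP14 to activate pro-MMP2, was at 445 FPKM with media, 360 with MRSA, 372 with PA and 337 with both species. TIMP3, the inhibitor bound to the matrix, was at 136, 68.0, 71.4 and 82.7 FPKM, and its log2 difference with MRSA, just past 2-fold, became -0.95 under equal sums over features of at least 300 bp. RECK, a membrane-anchored inhibitor, was at 38.2, 24.4, 26.4 and 25.9 FPKM. TIMP1 made up 33.7% of the FPKM of TIMP1 to TIMP4 with media, 34.6% with MRSA, 39.7% with PA and 54.8% with both species. Against all 4 inhibitors, the protease sum was 2.54 with media, 2.32 with MRSA, 1.85 with PA and 3.53 with both species, so the mixed culture stood above media on this ratio and below it on the ratio to TIMP1 alone.

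Of 12 pro-enzyme activators, 11 passed the filter, and 2, 3 and 2 were higher than media with MRSA, PA and both with none lower, and each count moved by at most 1 under the scalings tried. PLAU, urokinase, which makes plasmin from plasminogen, was at 18.7 FPKM with media, 46.5 with MRSA, 54.3 with PA and 38.5 with both species, and in the mixed culture its log2 difference of 1.04 became 0.98 under median-of-ratios scaling. PLAT, the tissue plasminogen activator, was at 45.8, 67.8, 103 and 82.5 FPKM, and FURIN, which cuts pro-MMP14, at 39.0, 49.1, 65.7 and 51.7. Among 6 carriers and surface partners, LCN2, which binds MMP9 in human neutrophils, was at 49.7 FPKM with media, 115 with MRSA, 513 with PA and 72.7 with both species. It was highest in PA, the library in which MMP9 was lowest.

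Of 19 inducers and transcription factors, 17 passed, and 4, 3 and 4 were higher and 0, 3 and 1 lower with MRSA, PA and both, again moving by at most 1 with the scaling. IL1B, a cytokine known to induce metalloproteinases, was at 17.3 FPKM with media, 57.1 with MRSA, 65.1 with PA and 54.6 with both species. IL1A was at 0.184, 1.53, 3.39 and 0.783 FPKM and IL17A at 1.69, 8.49, 8.58 and 5.07. FOS, JUNB and JUN, subunits of AP-1, were below media: FOS was at 865 FPKM with media, 632 with MRSA, 293 with PA and 489 with both species. JUNB was at 691, 469, 262 and 468 FPKM and JUN at 339, 194, 155 and 209. All 3 were highest in media and lowest in PA. The other listed AP-1 subunits, named after their values were seen, differed from each other: FOSL1 was at 6.54, 4.82, 3.27 and 3.21 FPKM and FOSL2 at 25.1, 25.3, 35.9 and 38.9. Of the genes that carry the AP-1 sequence, MMP3 and MMP10 were highest in media, MMP7 and MMP12 in MRSA and MMP13 in MRSA + PA. The part of AP-1 in these levels was not tested.

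Of the genes, 6 sit in 1 cluster on chromosome 8, in the order MMP13, MMP12, MMP1B, MMP3, MMP1A, MMP10, MMP8, MMP27, MMP20, MMP7. These 10 metalloproteinase features follow each other in the table with 0 other features between them, over 375 kb, and RefSeq lists all 10 in the same order on GRCr8. The 4 that are not among the described genes (MMP1A, MMP1B, MMP20 and MMP27) were under 0.1 FPKM in every library. Neighbours differed: MMP13 and MMP12, the first pair, stood 2-fold or more on opposite sides of media in MRSA and PA. MMP3 and MMP10, the stromelysins, lay below media in all 3 libraries under every scaling tried, with MMP10 within 2-fold in MRSA + PA, and MMP7 at the far end lay above it.

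**Figure D4:**
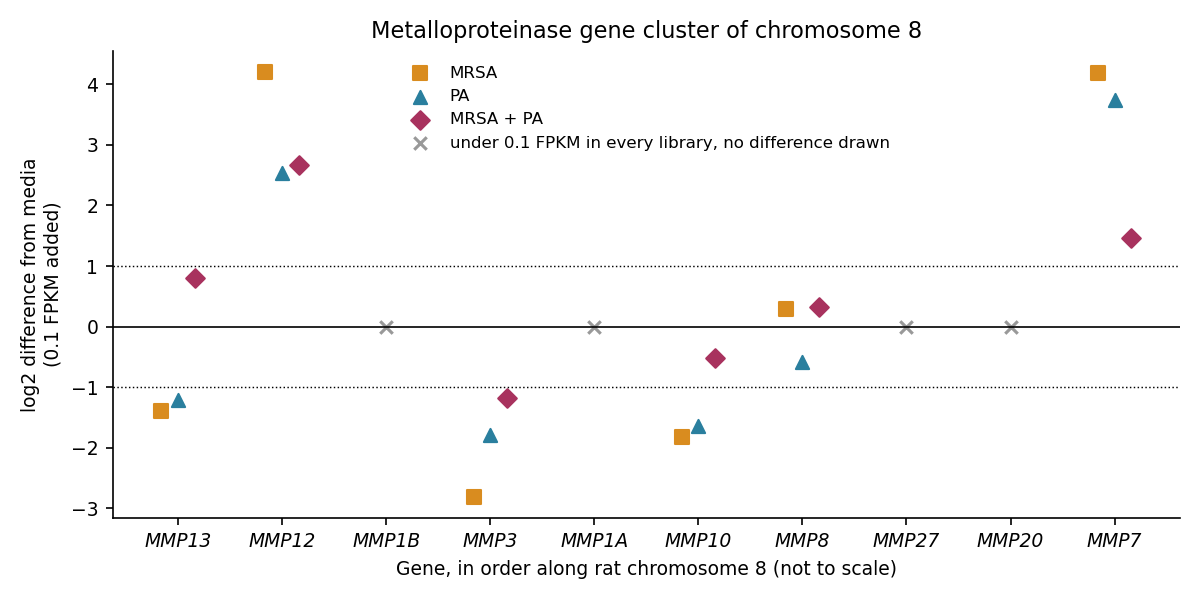
log2 difference from media (0.1 FPKM added) of the genes of the chromosome 8 cluster in their order along the chromosome, evenly spaced. Crosses mark the 4 genes under 0.1 FPKM in every library, for which no difference is drawn, and the 6 others lie on both sides of media.

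Cell type markers were read beside the genes. The macrophage list (9 of 11 symbols found, with MARCO at or near 0) summed to 456 FPKM with media, 974 with MRSA, 880 with PA and 921 with both species, a range of 1.93 to 2.14 times media. Relative to that sum, MMP12 was still 8.70-fold its media value with MRSA, 3.04-fold with PA and 3.18-fold with both species. EMR1, the F4/80 macrophage antigen, was at 19.7 FPKM with media, 112 with MRSA, 74.3 with PA and 77.0 with both species, so this marker was highest in MRSA as MMP12 was. The macrophage list was not uniform. MSR1, the scavenger receptor, was at 6.34, 22.6, 26.8 and 18.1 FPKM, highest in PA. CD163, at 5.93, 6.47, 12.7 and 5.77 FPKM, and MRC1, at 35.0, 57.0, 67.0 and 47.6, were also highest in PA. By narrow margins, C1QA, C1QB and C1QC were highest in MRSA and CSF1R in the mixed culture. CD163, MRC1 and CSF1R are named after their values were seen. The part of macrophage number in MMP12 was not tested.

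The osteoclast list (7 of 7 found) summed to 1674 FPKM with media, 1752 with MRSA, 932 with PA and 3462 with both species. The 4 libraries stood in the same order for MMP9, which was at 5.74% of the sum with media, 6.60% with MRSA, 7.70% with PA and 6.06% with both species. Under equal FPKM sums, the osteoclast sum with MRSA was 0.870 of media, below it rather than above. CTSK, the osteoclast collagenase cathepsin K, was at 1172 FPKM with media, 1260 with MRSA, 659 with PA and 2491 with both species. ACP5 (tartrate-resistant acid phosphatase) was at 424, 395, 221 and 807. These abundant genes make up most of the sum, and 2 low members, named after their values were seen, stood above media in PA: OSCAR was at 2.22, 3.05, 7.85 and 6.22 FPKM and OCSTAMP at 2.81, 7.40, 3.87 and 8.15. The neutrophil list (8 of 9 found, with LTF at or near 0) summed to 400 FPKM with media, 556 with MRSA, 601 with PA and 558 with both species, mostly S100A8 and S100A9. MMP9 and MMP8 were both lowest in PA, where that sum was highest, but the list was not uniform. The receptors CSF3R and CXCR2 were highest in PA, at 2.25, 9.04, 30.4 and 10.1 FPKM and at 1.37, 4.35, 15.2 and 5.89 FPKM. The granule genes differed. CAMP was at 31.8, 35.1, 23.0 and 21.7 FPKM and MPO at 3.55, 2.61, 1.52 and 2.75, both below media in PA. ELANE, at 1.03, 2.07, 1.06 and 1.30 FPKM, was near media in PA. MPO and ELANE are named after their values were seen. Relative to the neutrophil sum, MMP8 was at 0.879 of its media value with MRSA, 0.438 with PA and 0.906 with both species. The share of each cell type in MMP9 was not tested.

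MMP13 was compared with skeletal markers, since osteoblasts and chondrocytes make it. The bone and cartilage list (8 of 8 found) summed to 6383 FPKM with media, 2550 with MRSA, 1749 with PA and 3117 with both species. MMP13 relative to it was 0.952 of media with MRSA, 1.57 with PA and 3.58 with both species, so the high mixed value was not matched by this sum. Relative to the osteoclast sum it was 0.364, 0.772 and 0.845. The bone and cartilage list was not uniform. IBSP, bone sialoprotein, was at 257, 122, 88.9 and 270 FPKM, highest in the mixed culture as MMP13 was, by a narrow margin over media. RUNX2 was also highest in the mixed culture. Of the others past the filter, BGLAP, ALPL, SP7 and ACAN were highest in media and COL2A1 in PA. RUNX2, SP7 and COL2A1 are named after their values were seen. BGLAP, osteocalcin, made up most of the sum, at 5905, 2282, 1529 and 2717 FPKM. Bone markers at this level in scraped mucosa are a limit of the samples, and how much bone each scrape held was not tested.

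The fibroblast list (9 of 9 found) summed to 11115 FPKM with media, 6662 with MRSA, 6386 with PA and 5520 with both species. MMP3 relative to it was 0.235 of media with MRSA, 0.500 with PA and 0.884 with both species. The sum, mostly COL1A1, COL1A2 and COL3A1, was thus below media in all 3 libraries. MMP3 in the mixed culture differed from media little more than the sum did, but the list was not uniform. PDGFRA, at 36.7, 38.7, 48.4 and 51.7 FPKM, and PDGFRB, at 51.4, 65.7, 74.9 and 61.2, were above media in all 3. The other members were below media. The signs of PDGFRA in MRSA, COL3A1 in PA and LUM in the mixed culture turned under some scaling. PDGFRA, PDGFRB and LUM are named after their values were seen. The part of fibroblast content in MMP3 was not tested. The epithelial list (8 of 8 found) had a median log2 difference of 0.18 with MRSA, 0.32 with PA and 0.28 with both species, and the value in MRSA became -0.09 under equal FPKM sums. Its sum was mostly BPIFA1, an airway secretory protein, at 25725, 11118, 7472 and 13362 FPKM. The other members differed. EPCAM, the epithelial adhesion molecule, was at 237 FPKM with media, 266 with MRSA, 254 with PA and 222 with both species. KRT14, a basal cell keratin, was at 136, 161, 483 and 256 FPKM. KRT5, its partner, was at 83.6, 95.4, 393 and 175 FPKM and CDH1, E-cadherin, at 38.6, 57.3, 99.4 and 64.9, both named after their values were seen. KRT14, KRT5 and CDH1 were highest in PA, as was KRT8, at 76.1, 96.2, 111 and 103 FPKM. EPCAM was highest in MRSA, and so was MMP7. KRT18 was at 76.5, 75.9, 82.3 and 83.7 FPKM and KRT19 at 78.9, 75.8, 75.7 and 73.2. KRT8, KRT18 and KRT19 are likewise named after their values were seen. The part of epithelial content in MMP7 was not tested.

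**Figure D5:**
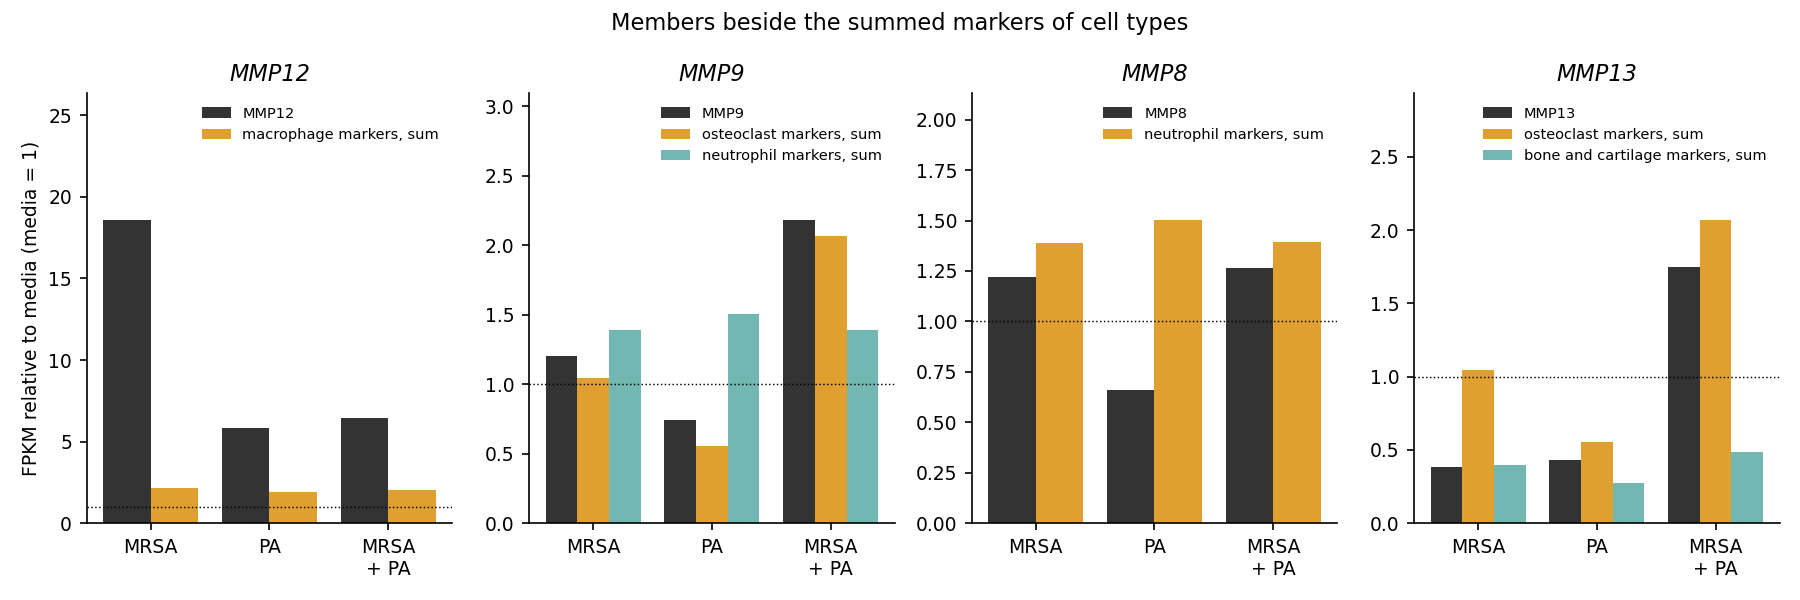
FPKM relative to media (media = 1, dotted line) of MMP12, MMP9, MMP8 and MMP13 (dark bars) beside the summed FPKM of marker lists (coloured bars), 1 library per condition and a separate linear axis from 0 in each panel. MMP12 reaches 18.6 where the macrophage sum is 2.14, while MMP9 in MRSA + PA is 2.18 beside an osteoclast sum of 2.07.

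The features whose 4-library pattern was most like a member were found by the Euclidean distance between centred log2 profiles over 10857 named features whose mean reached 5 FPKM. With 4 libraries that share one pipeline, such likeness is a description only. For MMP13 the 5 nearest were DMP1 (0.670), PLA2G2A (0.698), MEGF10 (0.774), IBSP (0.781) and SPP1 (0.797), of which DMP1, IBSP and SPP1 encode phosphoproteins of bone matrix. DMP1 was at 132 FPKM with media, 48.4 with MRSA, 35.4 with PA and 141 with both species. SPP1, osteopontin, was at 3308, 2276, 2179 and 5466 FPKM, with the mixed culture highest as for MMP13.

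For MMP12 the nearest were CCL9 (0.424), KACB_RAT (0.450), CLM (0.626), SLAMF6 (0.630) and IGHM (0.682). CCL9, a chemokine of myeloid cells in rodents, was at 9.26 FPKM with media, 134 with MRSA, 50.3 with PA and 69.9 with both species. KACB_RAT and IGHM are immunoglobulin constant regions, the latter at 42.9, 484, 139 and 161 FPKM. For TIMP1 the nearest were ST6GALNAC3 (0.267), RPL28 (0.267), LBP (0.280), DPYD (0.288) and PRSS35 (0.305). LBP, the lipopolysaccharide-binding protein, was at 85.6 FPKM with media, 69.0 with MRSA, 74.7 with PA and 121 with both species, again highest in the mixed culture.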

How the data were processed

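Poly(A) RNA from 4 mucosa samples was sequenced by the study, 1 library per condition. The authors deposited FPKM values, and the submitters' processing notes name STAR 2.3.0e, Cufflinks 2.1.1 and edgeR. The table names no genome build, and a human reference is named in the methods although the table has rat chromosomes, so the build is not given in the sources used here. The table holds no read or fragment counts, so fragments per gene were not computed. Steps between low values gave a depth of 1.13 times media with MRSA, 1.20 with PA and 1.08 with both species. The comparison tables hold the authors' fold changes and p-values, which were not used, and 12 value columns in them were left out.

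Values were compared as log2(FPKM + 0.1) with a 2-fold line over features of mean at least 1 FPKM (Python 3.11.15, pandas 2.3.3, numpy 2.4.6), and the counting was checked on simulated data. Other constants, folds, filters and scalings were tried. The genes and lists were chosen with earlier results of these data known. Named genes were all 10 members, in each other list those 2-fold from media in all 3 inoculated libraries in one direction (up to 6) and the 3 of highest mean, and the 5 nearest patterns of MMP13, MMP12 and TIMP1. Of these, only those that bear on the genes described are printed, and exceptions are marked.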

Additional observations from a re-analysis of the deposited data

Results flagged for a closer look

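Differences stood on opposite sides of media in 2 inoculated libraries that were at least 2-fold apart in 4 cases, and none of these differences was tested, since each condition has 1 library. MMP13 was above media in MRSA + PA and below it in both single-species libraries, with MRSA + PA higher by 2.20 than MRSA and by 2.03 than PA on the log2 scale. MMP9 was above media in MRSA + PA and below it in PA, 1.55 apart. TIMP1 was above media in MRSA + PA and below it in MRSA, 1.17 apart.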

How the results depend on the processing

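The median difference of the 10 genes for PA against MRSA, -0.06, changed sign under equal FPKM sums (0.19), equal sums over features of at least 300 bp (0.06) and those without skeletal muscle genes (0.05), and the medians of the other 5 comparisons kept their sign. Of 528 single-gene values 517 moved by less than 1.5-fold and stayed on their side of the 2-fold line. Of the 528, 60 with no filter, 48 with a 5 FPKM filter and 60 with features of a symbol summed could not change. A filter alters no value, and each symbol matched 1 feature. The 11 values that moved came from the other settings. With 1 FPKM added, the count higher in PA than in MRSA went from 1 to 0. The count higher in MRSA + PA went from 3 to 2 against media, from 4 to 3 against MRSA and from 3 to 2 against PA. MMP10 in MRSA + PA then stood 0.99 above MRSA and 0.86 above PA on the log2 scale. Shares of all features were not counted with this constant. With equal FPKM sums, the count higher in MRSA + PA than in PA went from 3 to 5, beside 399 of 15944 features before and 583 of 15958 after. Against MRSA it went from 4 to 5, beside 256 features before and 712 after. With a 1.5-fold line, MRSA + PA had 5 genes higher than media and 6 higher than PA, and PA had 3 lower than MRSA, beside 14.8%, 5.90% and 10.3% of all features. With a 3-fold line, MRSA + PA had 1 higher and 0 lower than media, 2 higher and 1 lower than MRSA and 1 higher than PA, and PA had 0 higher than MRSA, beside 3.71%, 4.14%, 0.677%, 2.95%, 1.17% and 1.89%. These follow from the line or the constant itself, and for the scaling the cause was not tested. MMP9 in MRSA + PA against MRSA went from 0.86 to 1.30, and TIMP1 against PA from 0.82 to 1.01, with equal FPKM sums. Scaling without skeletal muscle genes, chosen after seeing the data, moved no count. No paired analysis was possible because each condition has 1 library, and leaving out a replicate was not possible for the same reason. The table gives FPKM without fragment counts, so no counting interval was computed for low genes such as MMP7 in media, MMP8 and MMP10.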

Other observations

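Related proteases and matrix genes gave further values. Of 18 ADAM and ADAMTS proteases, all with a mean of at least 1 FPKM, 0 were higher and 2 lower past 2-fold with MRSA, 1 and 2 with PA and 0 and 3 with both species. The count higher with PA was 3 under equal sums over features of at least 300 bp. ADAMTS8 was at 15.8 FPKM with media, 6.85 with MRSA, 1.76 with PA and 1.16 with both species, and ADAM33 at 3.36, 1.23, 1.57 and 0.962, both lower in all 3, although ADAM33 in PA came within 2-fold under equal sums over features of at least 300 bp. The sheddases ADAM10 and ADAM17, highest in the list with ADAM9, were at 33.6, 48.2, 60.7 and 46.8 FPKM and at 31.0, 45.6, 50.9 and 42.6 FPKM.

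Among 15 matrix substrates, 14 were found, and 0 were higher and 2 lower with MRSA, 6 and 4 with PA and 1 and 5 with both species. Under the scalings tried, the count lower with MRSA lay between 2 and 4 and the count higher with PA between 4 and 7. The background shares are those given for the ADAM and ADAMTS proteases. COL1A1, a chain of type I collagen that MMP13 cuts, was at 3463 FPKM with media, 1872 with MRSA, 1704 with PA and 1171 with both species. DCN, decorin, was at 1412, 598, 529 and 569 FPKM. ACAN, aggrecan of cartilage, was at 4.36, 1.54, 0.452 and 0.202 FPKM. The mixed culture thus had the highest MMP13 and the lowest COL1A1 and ACAN of the 4 libraries, a description of 1 library per condition.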
